A study of Mus musculus with 10 samples.

Results

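Nascent transcription was compared between E14 mouse embryonic stem cells (ESCs) left for 6 h in the degrader dTAG-13 and the same cells without it. The cells carried SOX2 fused to FKBP, a tag that dTAG-13 brings to the ubiquitin machinery for destruction, and per the study's methods the lines were homozygous clones. The comparison used 2 libraries with 500 nM dTAG-13 for 6 h (6 hours post depletion, hpd) and 2 non-treated (NT) libraries from cells given DMSO, out of 10 libraries that also cover 0.5, 1 and 2 hpd. All groups shared the SOX2-FKBP genotype and a serum-free medium with LIF, the MEK inhibitor PD0325901 and the GSK3 inhibitor CHIR99021. Untagged cells given dTAG-13 were not analysed here, so an effect of the compound itself cannot be told apart from the loss of SOX2. RNA made during 10 min with 2 mM 4-thiouridine was captured and sequenced (TT_chem-seq), and fragments were counted over transcribed units (TUs). Of 40779 TUs, the 28459 with more than 10 fragments in at least 2 of the 10 libraries were tested, and 14997 of them carried a gene symbol.

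SOX2 is an HMG-box transcription factor that binds DNA beside OCT4 (encoded by Pou5f1) and sustains the naive pluripotent state of ESCs. When ESCs leave that state in culture or in the embryo, naive factors decline, formative and then lineage genes are switched on, and the receptors, ligands and adhesion molecules at the cell surface change with them. Genes were therefore read in 17 lists: 6 of lineage, 8 of signalling and 3 of adhesion. They named 549 genes, of which 395 had a TU in the table used here and 371 passed the count filter. Most of the other genes had no TU under their symbol, and the rest had too few fragments. They include the lineage markers T, Sox1, Fgf5 and Elf5, but also Dnmt3b, Smad4, Fgfr1 and Itga6.

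The 4 libraries held 13053099 to 17834332 fragments. The Pearson correlation of log2 CPM over TUs was 0.985 between the NT replicates, 0.987 between the 6 hpd replicates and 0.959 to 0.973 across the groups. Counts were scaled to library size as CPM, with TMM factors, and tested with edgeR's quasi-likelihood F-test, and a change was called where the p-value, adjusted over all tested TUs (Benjamini-Hochberg), was under 0.05. Nothing in the labels says that replicates came from separate cultures, so the p-values measure only the spread between these libraries. In bulk RNA, a change in the share of cells that transcribe a gene and a change in transcription per cell cannot be told apart.

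At 6 hpd, 1880 TUs had risen (6.61% of those tested) and 2618 had fallen (9.2%). Among TUs with a gene symbol, 1556 rose (10.4%) and 1162 fell (7.75%), with a median log2 fold change of 0.07. The counts over all TUs were lower when NT replicate 2 (764 and 1226), 6 hpd replicate 1 (1099 and 1360) or 6 hpd replicate 2 (940 and 1457) was left out, and DESeq2 called 1653 risers and 1719 fallers. Risers and fallers numbered 2781 and 2741 with only the 4 libraries compared and 1456 and 3106 with total counts, so the excess of fallers depended on the fit. With a replicate block, a term for replicate number that the labels do not mark as a pairing, they were 3394 and 4036. Of the 371 lineage, signalling and adhesion genes, 72 rose (19.4%) and 80 fell (21.6%), with a median of 0.01. The counts per list below stand beside the shares of all TUs with a symbol, 10.4% up and 7.75% down. The 72 rises became 43 without NT replicate 2 and 44 without 6 hpd replicate 2. Both 6 hpd libraries lay above both NT libraries for 143 of the 371 genes, against 38% of all TUs with a symbol, and below them for 122, against 24.7%. Lineage genes split into 19 that rose and 32 that fell of 97, signalling genes into 39 and 35 of 188, and adhesion genes into 17 and 15 of 95. The Sox2 TU itself, at chr3:34649994-34693958 on mm10, held 243 and 282.6 CPM in NT and 271.3 and 277.7 CPM at 6 hpd, and these ranges overlapped. Since dTAG-13 removes SOX2 protein and not its RNA, this level does not check the depletion.

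**Figure D1:**
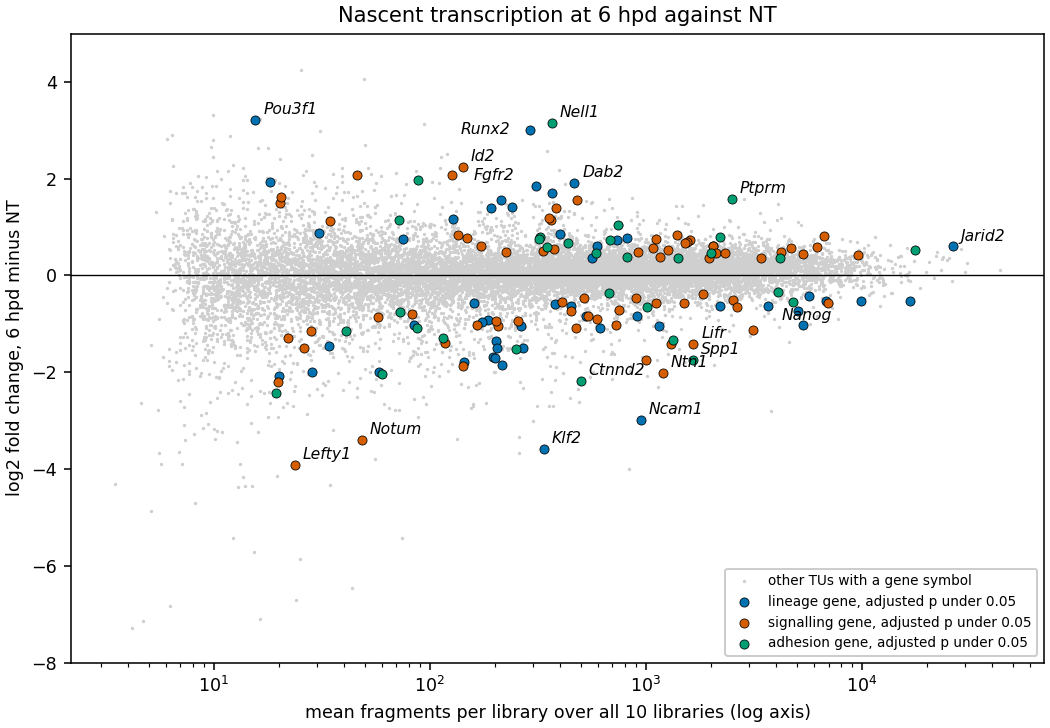
Log2 fold change of 6 hpd over NT (y axis) against the mean number of fragments per library over all 10 libraries (x axis, log scale). Grey points are the tested TUs with a gene symbol, coloured points the lineage, signalling and adhesion genes that passed the test, with a gene of several classes drawn in the first. Among the genes with higher counts, Nell1 and Runx2 stand apart as risers and Klf2 and Ncam1 as fallers, while Pou3f1, Lefty1 and Notum changed as much at low counts.

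The clearest rises among the 371 genes belonged to Nell1, Runx2 and Ptprm, whose place at the head of the risers was already known from earlier results of these data. Nell1 encodes a secreted matrix-associated glycoprotein. Its TU, at chr7:49975699-50473133, rose from 6.19 and 7.05 CPM in NT to 49.73 and 68.25 CPM at 6 hpd, a log2 fold change of 3.16 (SE 0.187, adjusted p = 6.32e-08). Runx2, the runt-domain factor of bone and cartilage progenitors, rose from 4.85 and 5.96 to 37.5 and 48.7 CPM, a log2 fold change of 3.00 (SE 0.196, adjusted p = 1.49e-07). Ptprm, a receptor tyrosine phosphatase that binds itself across cell contacts, rose from 89.0 and 94.2 to 244.6 and 304.9 CPM (log2 fold change 1.59, SE 0.116, adjusted p = 5.11e-07). For all 3 genes the lowest 6 hpd library stood more than 2-fold above the highest NT library.

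Klf2 and Ncam1 had the smallest p among the lineage genes that fell. Klf2, a Krüppel-like factor of the naive network at chr8:72318948-72329182, fell from 76.9 and 79.1 CPM to 6.67 and 6.35 CPM, which is 12.0-fold lower (adjusted p = 1.27e-09). Ncam1, the neural cell adhesion molecule, belongs to both the neuroectoderm and the adhesion lists. It fell from 87.8 and 90.9 CPM to 11.9 and 10.8 CPM, which is 7.90-fold lower (adjusted p = 6.32e-08). Over all TUs with a symbol, the 5 smallest p-values among the risers were those of Nell1, Runx2, Ptprm, Stum and Mbnl2. The 5 among the fallers were those of Aoah, Klf2, Gm36038, Jam2 and Mroh4.

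**Figure D2:**
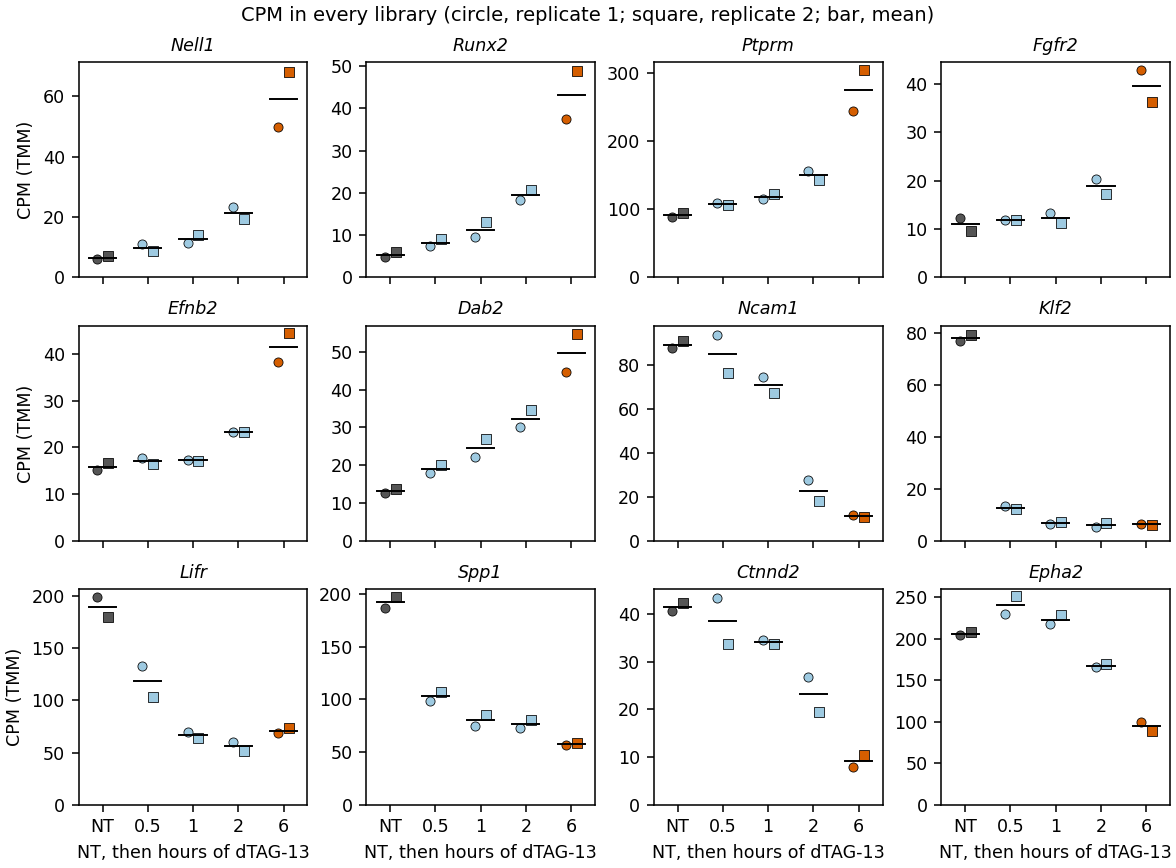
CPM (y axis, from 0) of 12 genes in every library at NT and after 0.5, 1, 2 and 6 h of dTAG-13 (x axis). Circles are replicate 1, squares replicate 2, bars the mean of both. Nell1, Runx2, Ptprm, Fgfr2, Efnb2 and Dab2 were highest in both 6 hpd libraries, whereas Klf2, Lifr and Spp1 were already low at 1 and 2 hpd.

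Promoters of the leading risers and fallers are printed to show the sequence before the listed starts of these genes. The changes themselves were counted over whole TUs, whose 5′ ends lay 349, 297, 114 and 5 bases from the listed starts in the order printed. They are the 250 bases before the gene start that RefSeq lists on GRCm38.p6, 5′ to 3′ along the gene, for the 2 lineage, signalling or adhesion genes with the smallest p in each direction whose listed start lay within 1000 bases of the TU. Nell1 and Ptprm rose. Klf2 and Fzd5, a Wnt receptor, fell. The limit on distance was set after the data were seen. It passed over Runx2, whose listed start lay 79511 bases from its TU, and Spp1, at 1949 bases, while Ncam1 had no entry in the table. Capitals mark GGGCGG on either strand, the GC box bound by SP1-family factors, which was searched after the sequences had been seen.
Nell1, chr7:49975100-49975349, plus strand: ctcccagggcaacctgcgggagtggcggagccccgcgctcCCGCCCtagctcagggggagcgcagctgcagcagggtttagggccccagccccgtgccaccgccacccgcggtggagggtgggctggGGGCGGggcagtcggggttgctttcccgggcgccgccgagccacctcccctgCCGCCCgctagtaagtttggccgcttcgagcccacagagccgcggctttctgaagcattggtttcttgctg
Ptprm, chr17:67354460-67354709, minus strand: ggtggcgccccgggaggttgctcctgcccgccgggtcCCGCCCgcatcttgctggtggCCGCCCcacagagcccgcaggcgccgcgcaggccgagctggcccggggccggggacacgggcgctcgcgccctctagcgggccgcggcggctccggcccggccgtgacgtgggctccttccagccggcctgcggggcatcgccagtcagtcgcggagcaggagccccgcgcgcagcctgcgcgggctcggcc
Klf2, chr8:72318812-72319061, plus strand: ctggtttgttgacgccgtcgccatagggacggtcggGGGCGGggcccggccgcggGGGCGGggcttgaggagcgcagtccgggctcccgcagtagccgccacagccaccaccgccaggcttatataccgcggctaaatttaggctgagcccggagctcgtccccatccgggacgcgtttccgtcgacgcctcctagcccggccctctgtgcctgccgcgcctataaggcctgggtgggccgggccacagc
Fzd5, chr1:64737751-64738000, minus strand: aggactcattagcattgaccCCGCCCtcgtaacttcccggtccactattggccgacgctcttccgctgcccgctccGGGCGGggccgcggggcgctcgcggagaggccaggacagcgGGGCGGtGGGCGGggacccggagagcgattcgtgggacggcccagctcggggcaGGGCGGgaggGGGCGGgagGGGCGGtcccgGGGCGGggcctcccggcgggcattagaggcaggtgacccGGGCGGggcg

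The 4 promoters were rich in G and C (72, 81.2, 71.2 and 76.4% in the order printed) and held 3, 2, 2 and 9 GC boxes. None held CATTGT, the core SOX motif, or ATGCAAAT, the octamer bound by OCT4, on either strand. Of all 32851 promoters in the table, 10.7% held the core SOX motif, 1.6% the octamer, 32.7% a GC box and 0 the composite of both factors with 1 base between. Among the lineage, signalling and adhesion genes with a listed start near the TU, the core SOX motif stood in 4 of 42 that rose, 2 of 30 that fell and 4 of 95 that did neither. A GC box stood in 29, 20 and 75 of them (69, 66.7 and 78.9%). These matches describe a window of 250 bases only, without distal elements.

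Of the 17 lists, naive pluripotency had the largest share of fallers. All 25 genes were tested, 18 fell, 1 rose and 6 passed in neither direction, with a median log2 fold change of -0.63. Besides Klf2, Prdm14, a repressor of differentiation genes, fell from 62.9 and 72.7 CPM to 32.0 and 32.1 CPM (adjusted p = 8.85e-06). Nr0b1, an orphan nuclear receptor of the naive network, fell from 22.4 and 29.9 CPM to 8.991 and 7.396 CPM (adjusted p = 1.21e-05). The core factors moved by less. Pou5f1 fell from 151.3 and 166.2 CPM to 108.9 and 97.25 CPM, a log2 fold change of -0.62 (SE 0.107, adjusted p = 0.00103). Nanog, the homeobox factor of the naive state, fell from 403.8 and 413.1 CPM to 302.2 and 302.6 CPM, a log2 fold change of -0.43 (SE 0.107, adjusted p = 0.012). The TUs of Pou5f1, Nanog and Sox2 span 49862, 32818 and 43964 bases and reach beyond the genes, so these values are not those of the genes alone.

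The other fallers of the naive list included Tcl1, Tdh, Utf1, Klf5, Dppa2, Klf4, Fbxo15, Tbx3, Dppa4, Esrrb, Nr5a2 and Dppa5a. Jarid2, a cofactor of the Polycomb repressive complex PRC2, was the single riser, from 1103 and 1334 CPM to 1653 and 2046 CPM (log2 fold change 0.60, SE 0.134, adjusted p = 0.00656). Sox2, Tfcp2l1, Zfp42, Sall4, Lin28a and Dppa3 passed in neither direction. Jarid2 lost its call without NT replicate 1 (log2 fold change 0.49) or without 6 hpd replicate 2 (0.44). Nanog lost its call without NT replicate 2 (-0.40), 6 hpd replicate 1 (-0.42) or 6 hpd replicate 2 (-0.43).

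Genes of the formative and primed state moved both ways, 5 up and 5 down of 16, with a median log2 fold change of -0.21. Pou3f1, which encodes the POU factor OCT6 of the epiblast and early neural plate, rose from 0.202 and 0.363 CPM to 2.39 and 2.91 CPM (log2 fold change 3.21, SE 0.42, adjusted p = 9.62e-05). That is 3 and 5 fragments in the NT libraries against 34 and 50 at 6 hpd. Sall3, a zinc-finger factor, and Dnmt3a, a de novo DNA methyltransferase, rose by 0.74 and 0.60 on the log2 scale, and Sox4 and Etv4 were the other risers. Zic5 and Zic2, zinc-finger factors of the epiblast and neural plate, fell from 28.2 and 30.96 to 7.73 and 8.73 CPM and from 27.1 and 25.4 to 8.50 and 7.57 CPM. Otx2, the homeobox factor of the formative state and forebrain, fell from 8.48 and 9.23 to 4.42 and 4.31 CPM (adjusted p = 0.00241), and Myc and Foxd3 fell too. The 5 risers became 3 in DESeq2, with scaling by total counts, or without either 6 hpd replicate, and 2 without NT replicate 2 or at a mean of 50 fragments and above.

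Of 16 trophoblast genes, 5 rose and 2 fell, with a median log2 fold change of 0.32. Fgfr2, the FGF receptor of trophoblast and epithelia, rose from 12.4 and 9.59 to 42.9 and 36.3 CPM (log2 fold change 1.84, SE 0.154, adjusted p = 1.55e-06). Plet1, a surface protein of trophoblast progenitors, rose from 6.66 and 7.85 to 22.8 and 19.8 CPM, and Wnt7b, a Wnt ligand, from 4.58 and 4.94 to 13.6 and 11.4 CPM. Peg10 and Elf3 were the other risers. Krt8, a simple-epithelium keratin, and Tfap2c, an AP-2 factor, fell by 2.00 and 0.83 on the log2 scale. None of the defining trophoblast factors Cdx2, Gata3 and Eomes was called in the main fit, though Gata3 was under the replicate block (-1.07, adjusted p = 0.0298). Cdx2 held 1 and 0 fragments in NT and 4 and 8 at 6 hpd and was not tested, Gata3 had a log2 fold change of -1.06 (SE 0.407, adjusted p = 0.0901), and Eomes one of 0.47 (SE 0.225, adjusted p = 0.177). The summed level of the tested list was 363.1 and 328 CPM in NT and 448.8 and 428.5 CPM at 6 hpd.

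Endoderm genes had 3 risers and 1 faller of 14, with a median log2 fold change of 0.46. That is 21.4% and 7.14%, against 10.4% and 7.75% of all TUs with a symbol. Dab2, an endocytic adaptor of primitive endoderm, rose from 12.7 and 13.7 to 44.7 and 54.7 CPM (log2 fold change 1.92, SE 0.145, adjusted p = 5.78e-07). Sparc, a matrix glycoprotein, rose from 81.8 and 84.7 to 135 and 118 CPM by 0.61 on the log2 scale. The defining factors were scarce. Sox17 held 3 and 6 fragments in NT and 8 and 6 at 6 hpd, Gata4 was at 11 to 19 fragments in all 4 libraries, and Gata6 at 17 and 16 against 33 and 32 (adjusted p = 0.0895). Under the replicate block Gata6 was called as a riser (log2 fold change 0.85, adjusted p = 0.0481). The summed level of the list was 146.7 and 151.7 CPM in NT and 231.2 and 229 CPM at 6 hpd. Sparc (mean 83.2 to 126.8 CPM) and Dab2 (mean 13.2 to 49.7 CPM) made up nearly all of this difference. Srgn rose and Gsc fell, but Srgn lost its call without any 1 of the 4 libraries (log2 fold change 0.67 to 0.83) and Gsc without NT replicate 2 (-0.75) or 6 hpd replicate 2 (-0.85).

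**Figure D3:**
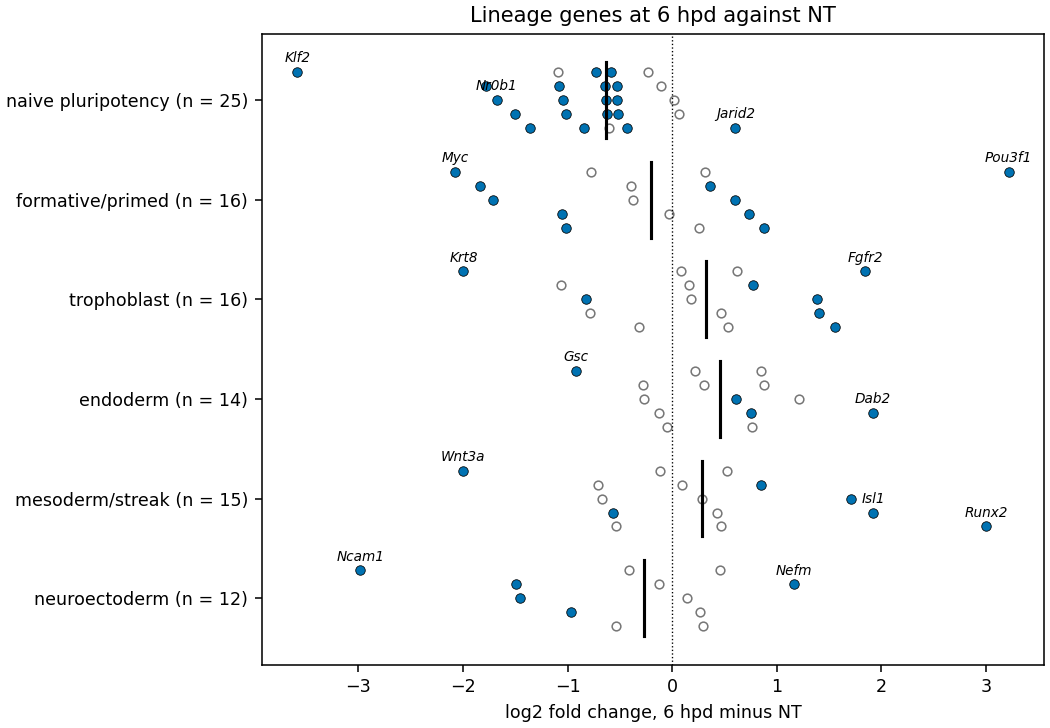
Log2 fold change of 6 hpd over NT (x axis) for the tested genes of 6 lineage lists (rows). Filled points passed the test, open points did not, and the black bar is the list's median. Naive genes lie mostly left of 0, and each other list has genes on both sides.

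In the mesoderm and primitive streak list, 4 genes rose and 2 fell of 15, with a median log2 fold change of 0.28. Next to Runx2, Pdgfrb, the PDGF receptor of mesenchyme and pericytes, rose from 11.8 and 8.57 to 41.4 and 25.9 CPM (log2 fold change 1.71, SE 0.207, adjusted p = 4.86e-05). Isl1, a LIM-homeobox factor of cardiac progenitors and motor neurons, rose from 0.606 and 0.436 to 1.97 and 2.04 CPM (log2 fold change 1.92, adjusted p = 0.00364), and Cdx1 was the fourth riser. Mixl1, which marks the streak, was at 5 to 11 fragments per library and passed no test (log2 fold change -0.12, adjusted p = 0.903). Wnt3a fell by 2.00 and Kdr, a VEGF receptor, by 0.56 on the log2 scale. Wnt3a lost its call without NT replicate 1 (-1.55) or 6 hpd replicate 1 (-1.65), and Kdr without NT replicate 2 (-0.33), either 6 hpd replicate (-0.40 and -0.75), in DESeq2, with RLE factors, without the count filter or with the 4 libraries alone (-0.55 to -0.53).

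Neuroectoderm genes had 1 riser and 4 fallers of 12, with a median log2 fold change of -0.27. That is 8.33% and 33.3%, against 10.4% and 7.75% of all TUs with a symbol. Besides Ncam1, Tubb3, a neuronal tubulin, fell from 14.7 and 15.6 to 5.27 and 5.47 CPM (log2 fold change -1.49, SE 0.148, adjusted p = 7.55e-06). Nes, the intermediate filament of neural stem cells, fell from 16.3 and 13.7 to 8.64 and 6.75 CPM, and Nkx6-2 fell as well. Nefm, a neurofilament subunit, moved the other way, from 5.65 and 6.61 to 13.9 and 13.6 CPM (log2 fold change 1.16, SE 0.16, adjusted p = 0.000149). Pax6, a neural homeobox factor, had overlapping ranges of 9.29 and 14.2 CPM in NT and 11.1 and 14.7 CPM at 6 hpd. The summed level of the list was 153.1 and 165.1 CPM in NT and 71.44 and 72.03 CPM at 6 hpd. Ncam1 alone, with a mean of 89.4 CPM in NT and 11.3 CPM at 6 hpd, made up most of this difference.

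The ESC markers Pou5f1, Nanog, Sox2, Zfp42, Esrrb, Sall4 and Dppa4 held 263 to 17034 fragments in each of the 4 libraries, as the label of the cells has it. Markers of other cells were read beside these lists. Of 12 genes of the 2-cell-like state only Zscan4d and Usp17la were tested, with near-identical copies that make their counts uncertain, and neither passed (0 risers, 0 fallers). Their sum was 0.404 and 2.25 CPM in NT and 1.05 and 1.86 CPM at 6 hpd. Of 12 fibroblast genes 3 were tested, and Pdgfrb alone rose. They summed to 126.8 and 116.1 CPM in NT and 153.4 and 147.5 CPM at 6 hpd, a difference that was mostly Pdgfrb. Col1a1 held 7 and 12 fragments in NT and 13 and 20 at 6 hpd, and Thy1 held 2 to 5 fragments in each of the 4 libraries, while no TU carried the symbol Col1a2. The part of other cells in the rise of Pdgfrb was not tested.

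Signalling began with FGF-ERK, in which FGF ligands signal through receptors to ERK and SPRY and SPRED proteins dampen the pathway. The MEK step was held by the inhibitor in the medium of every group. Of 17 genes 6 rose and 2 fell, with a median log2 fold change of 0.20. The ligand Fgf4 fell from 136.8 and 127.1 to 47.5 and 51.2 CPM (log2 fold change -1.42, SE 0.135, adjusted p = 4.76e-06), while the receptor Fgfr2 rose. Spred2 rose from 288.1 and 269.2 to 482.2 and 499.9 CPM (log2 fold change 0.82, SE 0.113, adjusted p = 0.000155), and Spry2 from 62.2 and 71.4 to 111 and 112 CPM. Spry1, Spred3 and Etv4, an ETS factor, also rose. Etv1 fell by 0.51 on the log2 scale, a call lost without NT replicate 2 (-0.33) or 6 hpd replicate 1 (-0.29).

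Nodal, BMP and TGFβ genes had 7 risers and 6 fallers of 37, with a median log2 fold change of 0.13. The fallers were ligands, secreted inhibitors and a co-receptor: Lefty1, Inhbb, Gdf3, Tgfbr3, Lefty2 and Fst. Lefty1, an inhibitor of Nodal, fell from 3.57 and 4.36 to 0.281 and 0.233 CPM, which is 15.1-fold lower with 4 fragments left in each 6 hpd library (adjusted p = 1.78e-05). Lefty1 and Lefty2 are close in sequence, so their shares of reads are uncertain. Inhbb, an activin subunit, fell from 14.3 and 17.8 to 3.51 and 5.18 CPM. The risers were receptors (Acvr1, Tgfbr1 and Bmpr1a), transducers (Smad5 and the inhibitory Smad6) and the regulators Skil and Id2. Id2, an inhibitor of bHLH factors and a BMP target, rose from 2.96 and 3.56 to 15.0 and 15.7 CPM (log2 fold change 2.24, SE 0.25, adjusted p = 2.26e-05). The 7 risers became 4 without NT replicate 2 and 3 without 6 hpd replicate 2.

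Wnt ligands bind Frizzled receptors, and the GSK3 inhibitor in the medium keeps β-catenin active in all groups. This list had 11 risers and 8 fallers of 38, with a median log2 fold change of 0.13. Receptors split. Fzd5 fell from 106.9 and 118.4 to 35.9 and 31.3 CPM (log2 fold change -1.75, SE 0.12, adjusted p = 2.46e-07). Fzd7 rose from 19.99 and 14.46 to 56.3 and 45.2 CPM (log2 fold change 1.55, SE 0.158, adjusted p = 9.41e-06), and Fzd2, Fzd6, Lrp5 and Ror2 rose too. Ligands split as well, with Wnt11 up from 2.83 and 2.98 to 11.6 and 12.8 CPM and Wnt7b up, but Wnt3a down.

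Notum, a secreted enzyme that inactivates Wnt ligands, fell from 8.35 and 9.81 to 0.843 and 0.874 CPM, which is 10.5-fold lower (adjusted p = 1.0e-06). Porcn, which acylates Wnt ligands, fell from 20.7 and 17.1 to 8.92 and 9.38 CPM. Lgr5, Ror1, Sfrp2 and the repressor Tcf7l1 fell, and Axin2, Tcf7l2, Dkk1 and Rnf43, which include feedback genes of the pathway, rose. The 11 risers became 6 without NT replicate 2 and 7 without 6 hpd replicate 2 or where the mean had to reach 50 fragments. The 8 fallers became 5 without NT replicate 2, without 6 hpd replicate 1 or with that minimum.

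LIF binds the receptor pair LIFR and gp130 (Il6st) and acts through JAK1 and STAT3, which sustain naive ESCs. Of 18 genes 3 rose and 6 fell, with a median log2 fold change of -0.26. Lifr fell from 198.9 and 179.6 to 68.6 and 73.2 CPM (log2 fold change -1.42, SE 0.127, adjusted p = 3.18e-06), and Il6st fell too. Among genes that STAT3 is known to act on, Pim3 fell from 32.2 and 26.6 to 14.8 and 13.1 CPM and Junb from 28.0 and 26.2 to 16.6 and 13.9 CPM, and Pim1 and Bcl3 fell. Pim3 and Junb had first stood above NT, with means of 38.2 and 49.5 CPM at 0.5 hpd. Jak1, Il6ra and Stat3 rose by 0.52, 0.55 and 0.35 on the log2 scale. Of these 3 risers 1 was left without NT replicate 2 and 0 without 6 hpd replicate 2.

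Notch receptors are cleaved when a neighbouring cell presents a ligand, and RBPJ carries the signal to DNA. Of 15 genes 2 rose and 4 fell, with a median log2 fold change of -0.19. The ligand Jag1 fell from 16.6 and 15.5 to 8.22 and 8.50 CPM (adjusted p = 0.000454). The receptors Notch1, Notch3 and Notch4 fell, Notch4 from 13.5 and 9.88 to 5.06 and 3.84 CPM and Notch1 from 99.4 and 86.6 to 62.5 CPM in both 6 hpd libraries. Notch2 and Rbpj rose by 0.37 and 0.43 on the log2 scale. These 2 rises became 1 without NT replicate 1 or at a mean of 50 fragments and above and 0 without NT replicate 2 or either 6 hpd replicate, with a log2 fold change of 0.32 to 0.42 for Notch2 and 0.39 to 0.49 for Rbpj when a library was left out.

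In the Hippo-YAP list 4 genes rose and 2 fell of 20, with a median log2 fold change of 0.06. That is 20% and 10%, against 10.4% and 7.75% of all TUs with a symbol. Crim1, a transmembrane BMP-binding protein, rose from 16.4 and 17.1 to 32.6 and 41.6 CPM (log2 fold change 1.15, SE 0.147, adjusted p = 8.02e-05). The coactivator Yap1, the TEAD cofactor Vgll4 and the kinase Lats2 rose, and the YAP targets Ctgf and Cyr61 fell by 0.80 and 0.87 on the log2 scale. The 4 risers became 2 without NT replicate 2 or either 6 hpd replicate, and the 2 fallers 0 without NT replicate 2, without 6 hpd replicate 2 or in DESeq2. Cyr61 also lost its call without NT replicate 1, without the count filter or with the 4 libraries alone (adjusted p = 0.076, 0.0504 and 0.0547), which left 1 faller. Retinoic acid genes had 1 riser (8.33%) and 2 fallers (16.7%) of 12, with a median of -0.26. Stra8, a germ-cell gene induced by retinoic acid, rose from 15.0 and 12.6 to 36.9 and 26.4 CPM (log2 fold change 1.19, SE 0.191, adjusted p = 0.000587). Dhrs3, a retinal reductase, and the receptor Rxra fell by 0.55 and 0.46, of which 1 was left without NT replicate 1, NT replicate 2 or 6 hpd replicate 1 or in DESeq2 and 0 without 6 hpd replicate 2. There were 4 fallers at a mean of 50 fragments and above, and 2 risers without 6 hpd replicate 2, without the filter or with the 4 libraries alone.

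**Figure D4:**
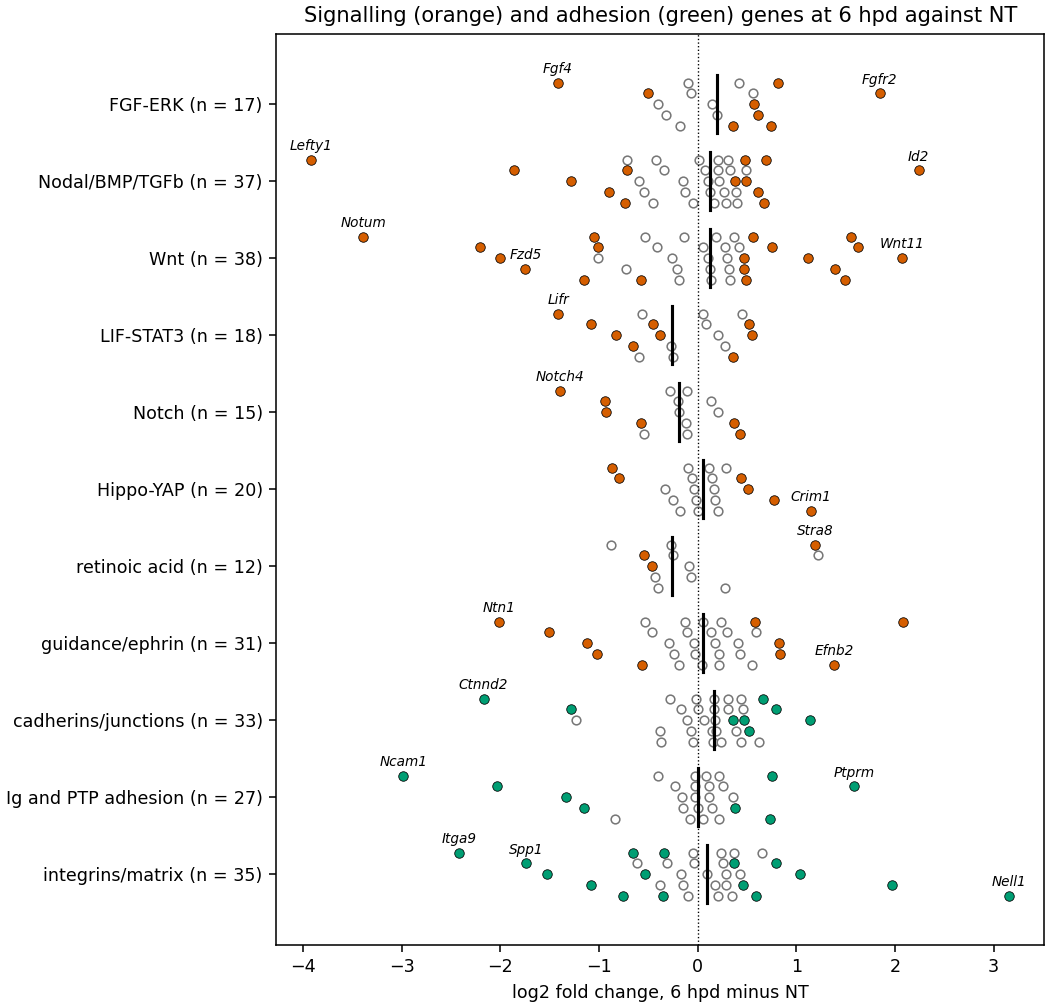
Log2 fold change of 6 hpd over NT (x axis) for the tested genes of 8 signalling lists (orange) and 3 adhesion lists (green), in rows. Filled points passed the test, open points did not, and the black bar is the list's median, which lay between -0.26 and 0.20 in all 11 lists.

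Guidance and ephrin genes, whose products steer cells and axons by attraction or repulsion, had 5 risers and 5 fallers of 31, with a median of 0.06. The secreted ligands Ntn1 and Slit3 fell. Ntn1 went from 101.4 and 112.5 to 27.0 and 25.9 CPM (log2 fold change -2.02, SE 0.154, adjusted p = 6.22e-07) and Slit3 from 53.1 and 53.4 to 24.2 and 28.4 CPM. Unc5a and Unc5b, receptors for netrin, rose by 2.08 and 0.83 on the log2 scale. Epha2, an ephrin receptor, fell from 203.9 and 207.6 to 100.2 and 88.8 CPM (log2 fold change -1.12, SE 0.103, adjusted p = 3.75e-06), and Ephb4 and Nrp2 fell. The transmembrane ligand Efnb2 rose from 15.1 and 16.6 to 38.3 and 44.5 CPM (log2 fold change 1.39, SE 0.122, adjusted p = 2.61e-06), and Sema4b and Sema3f rose.

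Cadherins join neighbouring cells and are tied to the cytoskeleton by catenins. Their list had 6 risers and 2 fallers of 33, with a median log2 fold change of 0.17. That is 18.2% and 6.06%, against 10.4% and 7.75% of all TUs with a symbol. Ctnnd2, the neural δ-catenin, fell from 40.6 and 42.3 to 7.87 and 10.4 CPM (log2 fold change -2.17, SE 0.177, adjusted p = 1.23e-06), and Cdh3, P-cadherin, from 9.49 and 8.43 to 3.44 and 3.90 CPM. Dsp, the desmosomal plakin, rose from 15.2 and 13.7 to 25.1 and 24.8 CPM (adjusted p = 0.00052). Cdh22, Ctnna1, Cdh4, Pkp2 and Ctnnd1 were the other risers. The 6 rises became 2 without NT replicate 1 or 6 hpd replicate 2 and 3 without NT replicate 2, and 10 with the 4 libraries fitted alone.

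Immunoglobulin-type adhesion molecules and receptor phosphatases had 4 risers and 4 fallers of 27, with a median log2 fold change of 0.01. Next to Ptprm, Ptprs rose from 33.8 and 32.9 to 59.6 and 51.4 CPM (adjusted p = 0.000355), and Bcam, a laminin-binding glycoprotein, and Cadm4 rose. Next to Ncam1, Pecam1, known from endothelium and from naive ESCs, fell from 134.2 and 118.3 to 52.8 and 47.3 CPM (log2 fold change -1.34, SE 0.132, adjusted p = 7.3e-06). Mcam fell from 4.11 and 3.78 to 1.12 and 0.815 CPM, and Ptprd fell. The 4 rises became 2 without NT replicate 2 or 6 hpd replicate 1, where Bcam had a log2 fold change of 0.51 in both.

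Integrins and the extracellular matrix had 7 risers and 9 fallers of 35, with a median log2 fold change of 0.09. After Nell1, Itga8, the integrin α8 chain, rose from 3.23 and 2.98 to 11.7 and 12.7 CPM (log2 fold change 1.97, SE 0.22, adjusted p = 2.31e-05), and Itgav, the αv chain, from 101 and 98.5 to 156 and 190 CPM. Sdc4, Lamb1, Gpc4 and Itga5 completed the risers. Spp1, the integrin ligand osteopontin, fell from 187.3 and 197.5 to 57.1 and 58.4 CPM (log2 fold change -1.74, SE 0.108, adjusted p = 8.77e-08). Vcan, a matrix proteoglycan, fell from 24.8 and 23.2 to 9.62 and 7.16 CPM, and Itgb5, Itgb3, Nid2, Itga9, Lama1, Gpc1 and Nid1 fell. The 9 falls became 5 without NT replicate 1 or 6 hpd replicate 1, and the 7 rises 4 without 6 hpd replicate 2.

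To see which genes differed in level between these times, 6 hpd was tested against 2 hpd in the same fit. Fragments were counted over whole TUs, and some are long, such as Ptprm (661732 bases), Slit3 (579581), Ctnnd2 (577540) and Nell1 (497434). Others are shorter, such as Epha2 (52566), Efnb2 (46136) and Nefm (8771). In a long TU, a change that began before 2 hpd may still add to this difference, which was not tested. Of the TUs with a symbol, 63 were higher at 6 than at 2 hpd (0.42%) and 111 were lower (0.74%). Of the 371 genes, 10 were higher and 16 lower. Nell1 rose from 23.5 and 19.3 CPM at 2 hpd to 49.73 and 68.25 CPM at 6 hpd (log2 difference 1.46, SE 0.163, adjusted p = 0.000559). Ptprm, Fgfr2, Efnb2, Runx2, Itga8, Nefm, Crim1 and Dab2 were also higher at 6 than at 2 hpd, by 0.62 to 1.38 on the log2 scale. Lama1, a laminin chain of basement membranes, was the tenth. Its NT libraries held 61.3 and 58.7 CPM, its 2 hpd libraries 33.6 and 29.8 CPM and its 6 hpd libraries 45.7 and 48.0 CPM, which placed 6 hpd between the other groups.

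Among the 16 that were lower, some were below both NT and 2 hpd. Ctnnd2 went from 26.7 and 19.5 CPM at 2 hpd to 7.87 and 10.4 CPM (log2 difference -1.33, adjusted p = 0.00204), and Epha2 from 165.8 and 168.9 to 100.2 and 88.8 CPM (log2 difference -0.83, adjusted p = 0.00114). Ncam1, Slit3, Tubb3, Tdh, Pim3, Junb, Ror1, Lefty2 and Itga9 were likewise called lower than in NT and lower than at 2 hpd. Tdh, a threonine dehydrogenase typical of naive ESCs, held 346.7 and 384.3 CPM in NT, 264.6 and 298.3 at 2 hpd and 167 and 193.6 at 6 hpd. Itga9 held 2 and 5 fragments at 6 hpd, so its size of change is poorly set.

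Eomes, Spry4, Icam1, Lama5 and Sdc1 were lower at 6 than at 2 hpd and passed no test against NT. Eomes, a T-box factor of trophoblast and endomesoderm, held 2.15 and 2.69 CPM in NT, 7.63 and 9.17 at 2 hpd and 3.16 and 3.49 at 6 hpd (6 against 2 hpd, log2 difference -1.33, adjusted p = 0.00316). Spry4, a feedback inhibitor of FGF signalling, held 2.09 and 4.36 CPM in NT, 6.88 and 8.36 at 2 hpd and 1.97 and 3.09 at 6 hpd (adjusted p = 0.0223). For both genes every 2 hpd library lay above every NT and 6 hpd library. Klf2, Lifr and Fgf4 passed no test between 6 and 2 hpd, with log2 differences of 0.11 (SE 0.16), 0.34 (SE 0.128) and -0.07 (SE 0.135). The 10 higher and 16 lower genes fell to 4 and 5 when 6 hpd replicate 2 was left out and to 7 and 3 when replicate 1 was. With 2 hpd replicate 1 left out they were 10 and 10, and with replicate 2 left out 7 and 7. A fit of the 2 and 6 hpd libraries alone called 9 higher and 7 lower.

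**Figure D5:**
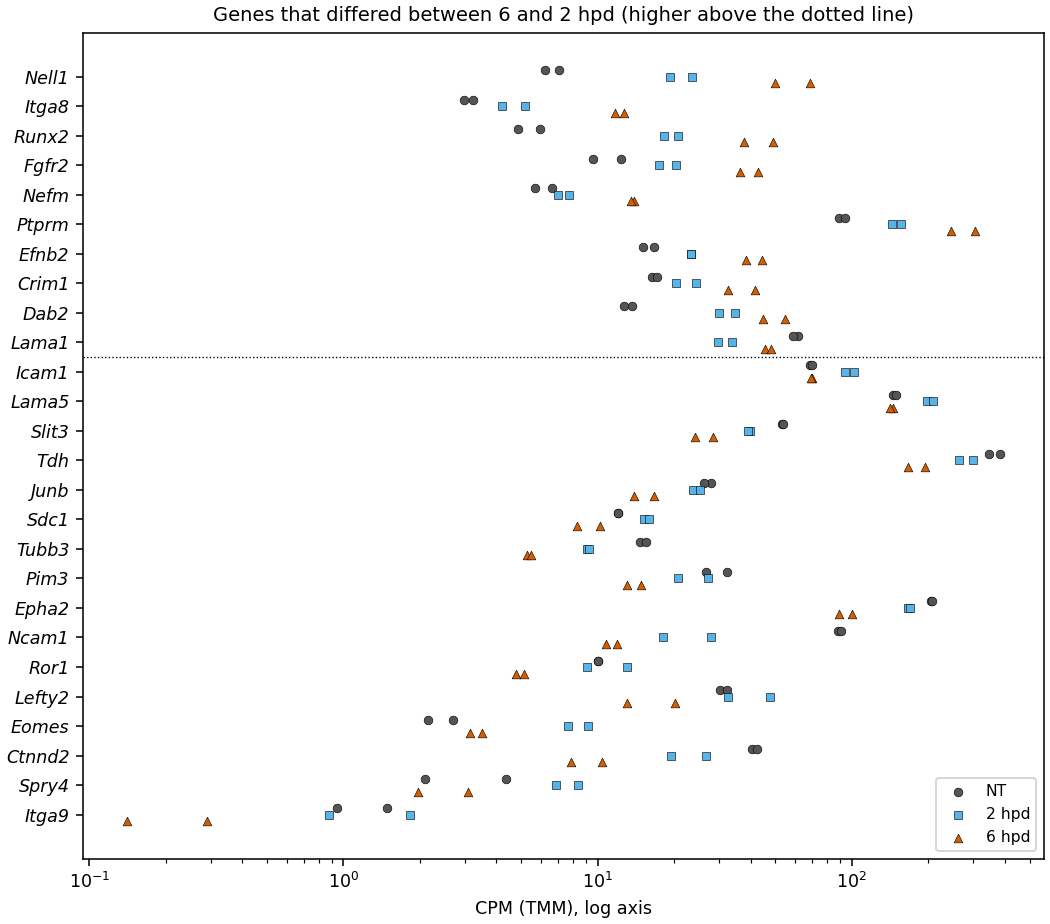
CPM (x axis, log scale) in both libraries of NT (circles), 2 hpd (squares) and 6 hpd (triangles) for the 26 genes that differed between 6 and 2 hpd (rows, the 10 higher at 6 hpd above the dotted line). Nell1, Runx2 and Ptprm step up from NT through 2 to 6 hpd, whereas Eomes and Spry4 are higher at 2 hpd than in both other groups.

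Of the 152 lineage, signalling and adhesion genes called at 6 hpd, 127 kept their call and direction when NT replicate 1 was left out and 100 when NT replicate 2 was. For 6 hpd replicates 1 and 2 these numbers were 115 and 105. None of them changed sign in these fits.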

How the data were processed

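The authors deposited raw fragment counts per TU for the 10 libraries, with TU positions on mm10. Per the study's methods and the submitters' processing notes, reads were aligned with BWA 0.7.17-r1188, filtered with SAMtools 1.10, cleared of duplicates with Picard 2.12.0 and split by strand, and TUs were found in pooled data with a hidden Markov model. Positions are printed as deposited, and starts may count from 0. No spike-in entered the scaling, so changes are relative to each library's TMM-scaled size, and a shift shared by most TUs would not be seen.

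The filter on low counts (over 10 fragments in 2 or more libraries) left out 12320 TUs with 0.316% of the fragments. edgeR 4.0.16 (R 4.3.3) fitted TMM-scaled counts with 1 coefficient for each of 5 groups and no covariate, all groups sharing 1 spread (biological coefficient of variation 10%). The contrasts were 6 hpd minus NT and 6 minus 2 hpd. The SE is the log2 fold change over the square root of F. The 10 libraries held 11131490 to 25854106 fragments, which bounds the precision, and replicates differed by more than counting error. On simulated data for 6 hpd against NT, 200 of 27540 TUs were changed (60, 70 and 70 by 0.5, 1 and 2 on the log2 scale). Of these, 25%, 72.9% and 97.1% were recovered, and 4.96% of calls were unchanged TUs. The data themselves held far more calls (1880 up and 2618 down), so these shares may not carry over to them.

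The groups came from the sample titles. Members and gene lists were chosen with earlier results of these data known, so no list was tested. One result among the listed genes is counted but not reported here by name. Values are given for Sox2, the defining genes of each list, up to 3 called genes per list and direction with the smallest p and groups that did not overlap, and the 5 such TUs with the smallest p of all in each direction. Other genes with values, such as some that differed between 6 and 2 hpd, were chosen after their values were seen. Symbols were matched to TUs by name, and 2 by a RefSeq synonym. Promoters came from the RefSeq table of GRCm38.p6, read with Python 3.11.15. Alternatives were DESeq2 1.42.0, RLE factors, total counts, leaving out the filter, a minimum mean of 50 fragments, the 4 libraries alone, a replicate block and each library left out.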

Additional observations from a re-analysis of the deposited data

Results flagged for a closer look

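The libraries at 6 hpd also differed from those at 2 hpd, by the test of that difference in the same fit, for 10 lineage, signalling and adhesion genes that were higher and 16 that were lower. Among genes named above, the log2 differences of 6 over 2 hpd were 1.46 for Nell1, 1.15 for Runx2, 0.88 for Ptprm, 1.07 for Fgfr2, 0.62 for Dab2 and 0.89 for Nefm. They were 0.73 for Crim1, 0.83 for Efnb2 and 1.38 for Itga8. Lower at 6 than at 2 hpd were Eomes at -1.33, Ncam1 at -1.03, Tubb3 at -0.77, Pim3 at -0.78 and Junb at -0.69. Epha2 stood at -0.83, Slit3 at -0.58 and Ctnnd2 at -1.33. Outside the lists, Stum was higher by 1.03 and Gm36038 had a difference of -0.79.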

How the results depend on the processing

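Of the 102 TUs that the naming rule gave, which leave out some others with printed values, DESeq2 kept the direction and the side of the threshold for 97, RLE factors for 101, total counts for 99, the fit without a filter for 100 and the 4 NT and 6 hpd libraries alone for 100. Without NT replicate 1 or 2 it was 90 and 85, and without 6 hpd replicate 1 or 2 it was 89 and 84. DESeq2 called 1719 fallers. A fit of the 2 and 6 hpd libraries alone called 7 genes lower at 6 than at 2 hpd. With the replicate block, 3394 TUs rose, 4036 fell, and 30 genes were higher and 29 lower at 6 than at 2 hpd. The labels do not say that replicate numbers mark shared cultures, so the numbers were not taken as pairs. Deviations of same-numbered libraries correlated by 0.0544 to 0.663, all positive, and by 0.197 for NT and 6 hpd. All 152 calls among the 371 genes held under the block, and Gata3 (log2 fold change -1.07, adjusted p = 0.0298) and Gata6 (0.85, adjusted p = 0.0481) were called under it. It raised the risers to 6 in endoderm, 2 in neuroectoderm, 3 in retinoic acid (with 4 fallers), 10 in cadherin and 11 in integrin and matrix genes.

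Leaving out each library in turn gave 764 to 2589 risers and 1226 to 2864 fallers over all TUs. It gave 43 to 62 risers among the 371 genes when an NT or 6 hpd library was left out, and 4 to 10 genes higher and 3 to 10 lower at 6 than at 2 hpd. Some genes without a call changed sign. Sox2 ranged from -0.025 to 0.20 and was -0.029 with total counts, Gata4 from -0.55 to 0.12, Mixl1 from -0.51 to 0.50, Pax6 from -0.12 to 0.50 and Zscan4d from -1.44 to 1.15 on the log2 scale. The cause was not tested. Depth limits TUs of few fragments most, and changes of 0.5 on the log2 scale were recovered in 25% of simulated cases, so a gene without a call may have changed.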

Other observations

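Genes outside the lists held some of the smallest p-values at 6 hpd. Stum, a homolog of a fly mechanosensory gene, went from 1.61 and 1.16 CPM in NT to 12.3 and 12.3 CPM, a log2 fold change of 3.13 (SE 0.232, adjusted p = 5.11e-07). Mbnl2, a splicing regulator, went from 144.9 and 129.1 to 369.5 and 393.5 CPM (log2 fold change 1.48, SE 0.111, adjusted p = 5.65e-07). Aoah, an enzyme that inactivates lipopolysaccharide, fell from 139.7 and 144.9 to 8.29 and 9.43 CPM, which is 16-fold lower (adjusted p = 6.56e-11). Jam2, a junctional adhesion molecule that the adhesion lists did not name, fell from 531.4 and 545.1 to 66.6 and 87.1 CPM (log2 fold change -2.81, SE 0.131, adjusted p = 5.16e-09). Mroh4 fell from 45.4 and 46.3 to 4.42 and 4.60 CPM and the predicted gene Gm36038 from 167.1 and 170.1 to 28.3 and 22.7 CPM.

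Among the called TUs outside genes or antisense to them, more fell than rose. Of 7793 extragenic TUs, 924 fell (11.9%) and 203 rose (2.6%), against 9.2% and 6.61% of all tested TUs, with a median log2 fold change of -0.30. Of 2831 TUs antisense to gene bodies 306 fell (10.8%) and 57 rose (2.01%), and of 2244 antisense to gene starts 152 fell (6.77%) and 40 rose (1.78%). Their median fragment number per library was 17.2, 18 and 22.6, against 353.4 for TUs with a gene symbol. These class counts are given for the main fit only. Over all TUs, risers and fallers were 1653 and 1719 in DESeq2 and 1447 and 1769 at a mean of 50 fragments and above.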
